A study of Mus musculus with 20 samples.

Results

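The kidneys of mice labelled as lacking the liver X receptor α (Lxrα) were compared with kidneys of wild-type mice across all genes. The 10 libraries are those whose labels name kidney as the source, of 20 libraries in the series, and the deposited count table lists 54532 genes, of which 22785 had no count in any of the 10. All 10 mice were male and of C57BL/6 background. One group of 5 libraries is labelled Lxrα-/- and titled KO1 to KO5, and the other group of 5 is wild type and titled with the numbers 1, 3, 4, 5 and 6, written here as WT1, WT3, WT4, WT5 and WT6. The design asks what differs in the kidney between the genotypes. No treatment, age, diet or litter is given in the sources used here, nor the part of the gene that was deleted or whether the mice were littermates, so p values measure the spread between these samples. Bulk kidney RNA mixes tubule, vessel, stroma, glomerulus and immune cells, and in it fewer cells of a type and less RNA per cell cannot be told apart.

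The Nr1h3 gene encodes Lxrα, a receptor in the nucleus that senses oxysterols, pairs with retinoid X receptors and switches on genes of sterol efflux, lipogenesis and phospholipid remodelling. The related receptor Lxrβ, encoded by Nr1h2, recognises the same response elements and is expressed in most tissues. In macrophages the liganded receptors also restrain inflammatory genes, and in the kidney they have been studied in relation to renin and to phosphate transport.

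Levels are given as CPM, read counts scaled to a common library size with TMM factors (trimmed mean of M values), and group values as mean ± SD (n = 5 per genotype). Each fold change is the log2 ratio of the labelled knockout to the wild-type group, with its standard error (SE). A gene was called higher or lower where its edgeR quasi-likelihood p, adjusted by Benjamini and Hochberg over all 16500 genes tested, was under 0.05, and every adjusted p below is of that kind. The same fit was repeated with each library left out in turn. A gene named as higher or lower was called in all 10 of these fits, unless the paragraph that names it lists libraries without which the call was lost.

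Total counts ran from 23421561 to 32221055 per library. Mitochondrially encoded genes took 50.8% of the counts of WT3 and 7.21% of those of WT1, against 12.6% to 21.1% in the other 8 libraries. The difference between genotypes in this share was -7.32 percentage points (two-sided exact permutation p = 0.468 over 252 splits), and -11.2 points without WT1 (p = 0.0476). WT3 also lay apart on the first principal component, which held 50.2% of the variance, and its TMM factor was 0.795, where that of WT1 was 1.3 and the others lay between 0.925 and 1.05. The immediate early gene Fos stood at 46.3 CPM in WT3 and at 0.363 to 1.23 CPM in the other 9 libraries. Tissue identity was checked with 20 markers of the proximal tubule, whose summed level before TMM scaling was 12097 to 23359 CPM in wild type and 18559 to 23394 CPM in labelled knockout, while the hepatocyte gene Alb stood at 4.52 ± 1.84 and 4.57 ± 1.19 CPM.

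Nr1h3 (ENSMUSG00000002108, mm10 chromosome 2, 91184061 to 91202834, minus strand), the gene named in the genotype, stood at 50.2, 49.5, 53.4, 55.0 and 52.3 CPM in WT1, WT3, WT4, WT5 and WT6 and at 99.4, 123, 136, 115 and 157 CPM in KO1 to KO5. Every labelled knockout library lay above every wild-type library, and the log2 fold change was 1.27 (SE 0.16, adjusted p = 0.00209). This direction goes against a loss of the transcript. Gene-level counts cannot tell one exon from another, so they do not check the deleted part. All directions below are therefore given for the libraries as labelled. Acp2, the gene of an acid phosphatase of lysosomes, lies next to Nr1h3 on the plus strand (91202885 to 91214098) and rose from 34.9 ± 0.94 to 87.5 ± 4.49 CPM (1.33, SE 0.13, adjusted p = 0.000856).

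**Figure D1:**
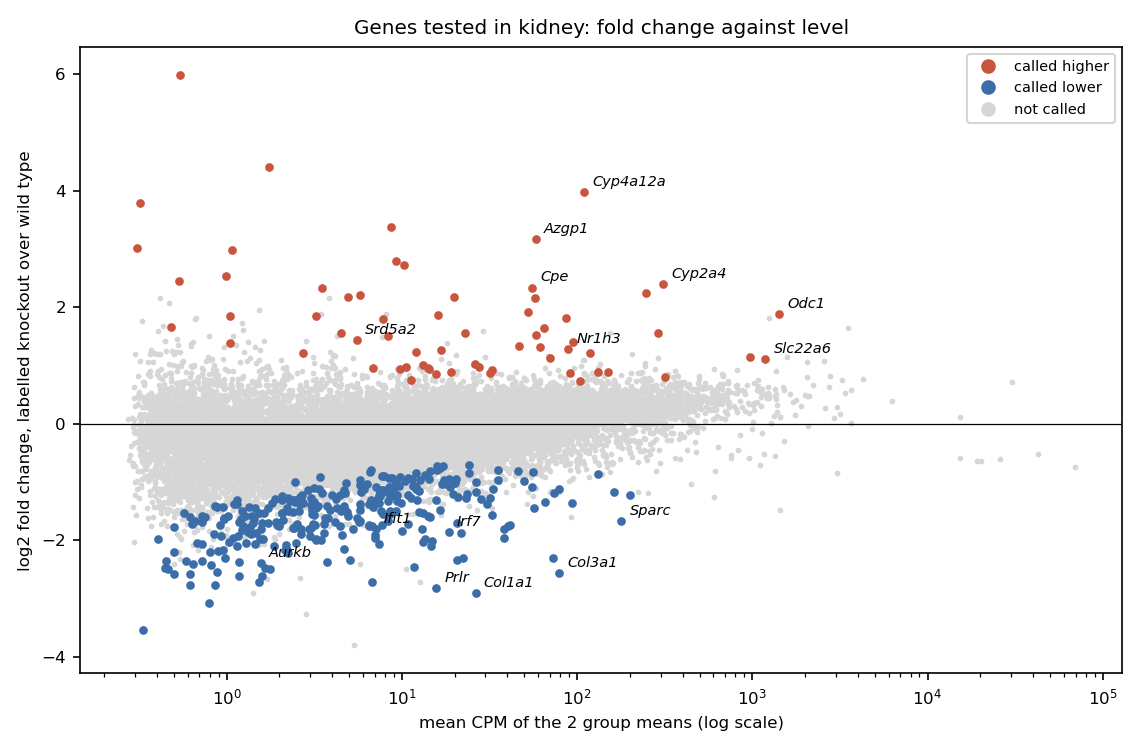
Log2 fold change (labelled knockout over wild type) of the 16500 genes tested against the mean of both group means in CPM on a log axis, 1 dot per gene. The 65 genes called higher and the 308 called lower are coloured, and most of the coloured dots above 100 CPM lie on the higher side.

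In all, 373 of the 16500 genes tested were called (2.26%), 65 of them higher (0.394%) and 308 lower (1.87%) in labelled knockout kidney. The counts of called list members below are to be read beside these shares. The genes called lower were mostly of low abundance, with a median level of 6.54 CPM in wild type and 2.35 CPM in labelled knockout, whereas those called higher had medians of 9.86 and 24.9 CPM. Protein-coding genes made up 55 of the higher and 303 of the lower calls. The 5 libraries of one genotype did not overlap the 5 of the other for 1141 genes tested (6.92%), with 681 lower (4.13%) and 460 higher (2.79%) in labelled knockout, and 332 of the called genes were among them. Over all genes tested the median log2 fold change was -0.07, and 56.2% of genes had a negative value. The median was -0.16 without TMM scaling, where 38 genes were called higher and 358 lower.

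The number of calls depended on single libraries. Without WT6 there were 169 higher and 752 lower calls, and without WT3 there were 129 and 301. Leaving out KO4 gave 24 and 75, KO5 gave 24 and 80, KO1 gave 29 and 100, KO3 gave 30 and 120, WT5 gave 28 and 129, and WT4 gave 35 and 140. In all 10 fits 87 genes were called, 23 higher and 64 lower, and it is mainly these that are named below. With WT1 and WT3 both left out, 318 of the 373 genes were still called, beside 177 higher (1.05%) and 413 lower (2.46%) calls in all.

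**Figure D2:**
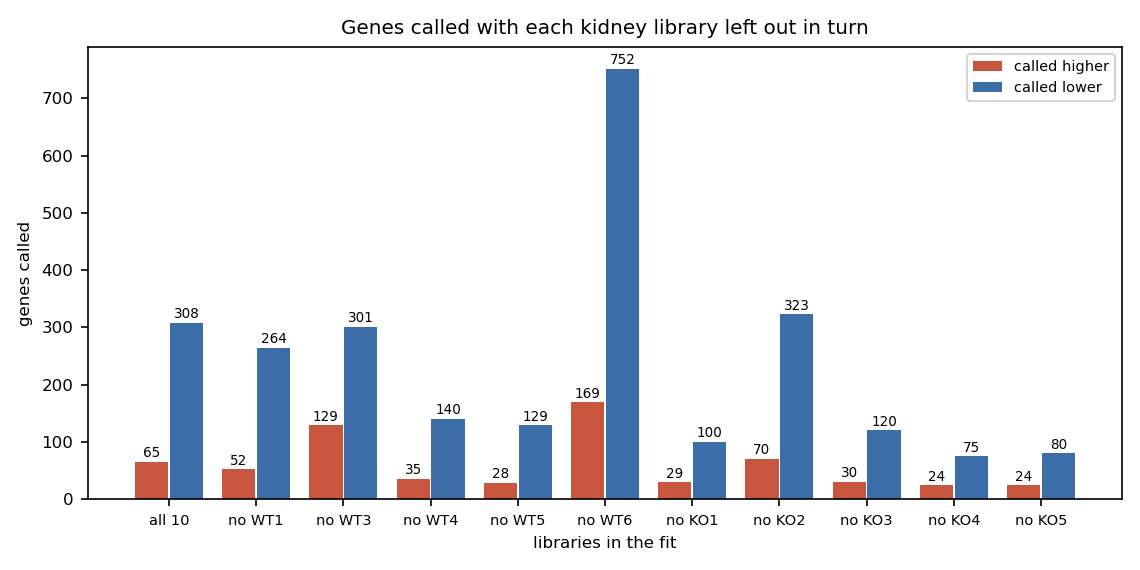
Number of genes called higher and called lower (vertical axis) in the fit of all 10 kidney libraries and in the 10 fits that leave out 1 library each (horizontal axis). The bars run from 24 higher and 75 lower without KO4 to 169 and 752 without WT6, with 65 and 308 in the fit of all libraries.

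Many genes of the interferon response were lower in labelled knockout kidney. Interferons bind receptors on the cell surface, which activate a factor complex that includes Stat2 and Irf9 and binds the interferon-stimulated response element in the promoters of antiviral genes, among them Irf7, a factor that amplifies the response. Of 74 genes tested from 4 lists of the interferon system, 31 were called lower (1.87% over all genes) and 0 higher by edgeR (0 at an unadjusted p under 0.05, and 0 by DESeq2 and by limma voom), with a median of -1.07 beside -0.07 over all genes. The count was 12 without KO4. The 31 lie mainly among the effectors, the antiviral proteins themselves, where 22 of 32 were called lower and all 32 had negative fold changes (median -1.33). The effector count fell to 8 without KO4, 11 without KO1 and 12 without KO5, and was 23 without WT1 and WT3.

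The receptor gene Ifnar1 had a log2 fold change of -0.09 (adjusted p = 0.718), with 36.4 ± 1.74 and 34.3 ± 3.85 CPM. Below the receptor, Stat2 was not called (-1.15, adjusted p = 0.0948). Its partner Irf9 fell by 0.94 on the log2 scale, from 26.8 ± 9.58 to 13.9 ± 1.18 CPM (adjusted p = 0.0362), a call that was lost without WT4, WT5, KO1, KO2, KO3, KO4 or KO5 (adjusted p up to 0.112). Irf7 (chromosome 7, 141262706 to 141266481) stood at 27.9, 40.0, 30.0, 25.8 and 21.4 CPM in WT1, WT3, WT4, WT5 and WT6 and at 7.03, 9.42, 10.2, 6.74 and 6.69 CPM in KO1 to KO5. The lowest wild-type library, WT6, lay well above the highest labelled knockout library, KO3, and Irf7 had the smallest p of the genes called lower (-1.85, SE 0.20, adjusted p = 0.00146). Irf7 and Irf9 were the only 2 of 15 receptor and transducer genes called in the fit of all 10 libraries, a count of 1 in each fit that lost Irf9.

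Among 12 sensors of foreign nucleic acid, 4 were called lower (3 without KO4 or KO5) and all but 1 had negative fold changes. Zbp1, which senses Z-form nucleic acids and can trigger necroptosis, stood at 5.66 ± 1.0 and 1.54 ± 0.287 CPM (-1.87, adjusted p = 0.00208). Mb21d1, which encodes the cytosolic DNA sensor cGAS, stood at 1.10 ± 0.191 and 0.261 ± 0.0382 CPM (-2.04, adjusted p = 0.00571). Dhx58, which encodes the RIG-I-like receptor LGP2, had a log2 fold change of -1.71 (adjusted p = 0.0120). Nlrc5, a regulator of MHC class I genes, was the fourth (-1.37, adjusted p = 0.0177, and up to 0.0688 without KO4 or KO5).

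Ifit1, which binds viral RNA that lacks a methylated cap, stood at 7.44, 15.5, 10.5, 10.8 and 10.9 CPM in WT1, WT3, WT4, WT5 and WT6 and at 2.23, 4.08, 4.07, 2.71 and 2.67 CPM in KO1 to KO5. Isg15, a ubiquitin-like modifier, stood at 8.94, 15.1, 9.25, 12.5 and 10.1 CPM and at 1.41, 3.8, 4.33, 2.30 and 2.97 CPM in the same order. In both genes WT3 was the highest library, KO1 the lowest, and the groups did not overlap (Ifit1 -1.80, SE 0.25, adjusted p = 0.00374, and Isg15 -1.91, SE 0.29, adjusted p = 0.00674). Ube2l6, the enzyme that passes Isg15 to its targets, fell by 1.21 on the log2 scale (adjusted p = 0.00674). The oligoadenylate synthetases, which activate RNase L, included Oas1a (-1.69, adjusted p = 0.00668), Oas3 (-2.35, adjusted p = 0.00674) and Oasl1 (-1.55, adjusted p = 0.0120), and 6 of the 8 genes tested whose symbols begin with Oas were called lower. Bst2, or tetherin, which holds budding virus at the cell surface, fell from 33.0 ± 4.46 to 14.3 ± 3.52 CPM (-1.20, adjusted p = 0.00793). Rtp4 and Ifi27l2a had log2 fold changes of -1.75 and -1.97 (adjusted p = 0.00336 and 0.00285). Some Oas genes are close copies of each other, so the authors' counting may have split their reads.

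To show the element that gives this group its name, promoter sequence was taken for 5 genes called lower, from RefSeq windows of the build GRCm38.p6 that reach from 250 bases before to 50 bases after each start site. The element was searched on both strands as GAAA, any 2 bases and GAAA again, and capitals mark every match. A match on the opposite strand reads TTTC, any 2 bases and TTTC. The stretches lie at chr19:34640755-34640843 on the plus strand (Ifit1), chr4:156200841-156200930 on the minus strand (Isg15), chr5:120907526-120907582 on the minus strand (Oas1a), chr8:71537550-71537639 on the minus strand (Bst2) and chr3:142559962-142560043 on the plus strand (Gbp3).
Ifit1: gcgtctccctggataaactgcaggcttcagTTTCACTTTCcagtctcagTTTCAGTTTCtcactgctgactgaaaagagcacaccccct
Isg15: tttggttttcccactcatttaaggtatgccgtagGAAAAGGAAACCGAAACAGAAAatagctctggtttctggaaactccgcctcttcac
Oas1a: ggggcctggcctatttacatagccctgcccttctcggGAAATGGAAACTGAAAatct
Bst2: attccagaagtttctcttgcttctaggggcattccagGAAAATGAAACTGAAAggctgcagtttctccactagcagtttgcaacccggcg
Gbp3: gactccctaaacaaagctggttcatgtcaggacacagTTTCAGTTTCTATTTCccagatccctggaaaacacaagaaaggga
The promoter of Isg15 held 3 overlapping matches, and those of Oas1a, Bst2 and Gbp3 held 2 overlapping matches each. In Ifit1 there were 2 separate matches, the first starting 104 bases before the start site. Of all 32851 RefSeq windows, 3.44% held the element, and 3.22% of the 14950 windows of genes tested in kidney. The element was found in 12 of 26 windows of the effector list and in 9 of 10 of the interferon-inducible GTPases. It was found in 12.7% of the windows of genes called lower and in 1.69% of those of genes called higher.

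The interferon-inducible GTPases, which attack the vacuoles of intracellular microbes, had a median of -1.12, and 3 of 15 were called lower, beside 1.87% of all genes. Gbp3 fell from 18.6 ± 5.62 to 6.51 ± 2.0 CPM (-1.51, adjusted p = 0.0127, and 0.0503 without KO4), and Iigp1 from 17.3 ± 4.37 to 6.96 ± 2.71 CPM (-1.31, adjusted p = 0.0284). Libraries of the genotypes overlapped for Iigp1, and its call was lost without WT4, WT5, KO3, KO4 or KO5 (adjusted p up to 0.0814). The count of GTPases was 1 without WT4, WT5 or KO3, 0 without KO4 and 5 without WT6. Of 18 genes of MHC class I presentation, which display peptides to cytotoxic T cells, 3 were called lower (1.87% over all genes), led by H2-Q4 (-1.28, adjusted p = 0.0130, and 0.0542 without KO4). That count was 1 without WT4, WT5, KO1, KO3 or KO5, 0 without KO4 and 5 without WT6. Of 9 class II genes 0 were called by edgeR, where 1 had an unadjusted p under 0.05, and DESeq2 called 0 and limma voom 3 of them, all lower.

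The Slfn and p200 gene families outside the lists were looked at after their values were seen. Of the 7 Slfn genes tested, which include inhibitors of translation and of T cell growth, 4 were called lower, with a family median of -1.63. The log2 fold changes were -2.16 for Slfn9 (adjusted p = 0.0025), -2.19 for Slfn1 and -1.89 for Slfn8 (adjusted p = 0.0123 for both). Of the 9 genes tested of the p200 family on chromosome 1, whose proteins include nuclear DNA sensors, 6 were called lower, with a median of -1.69. Among them Ifi213 fell from 8.43 ± 4.67 to 1.66 ± 0.583 CPM (-2.33, adjusted p = 0.0109), while Ifi206 had -1.76 (adjusted p = 0.0117) and Ifi209 -1.69 (adjusted p = 0.0120). Both families include some close copies, whose reads the authors' counting could have split.

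**Figure D3:**
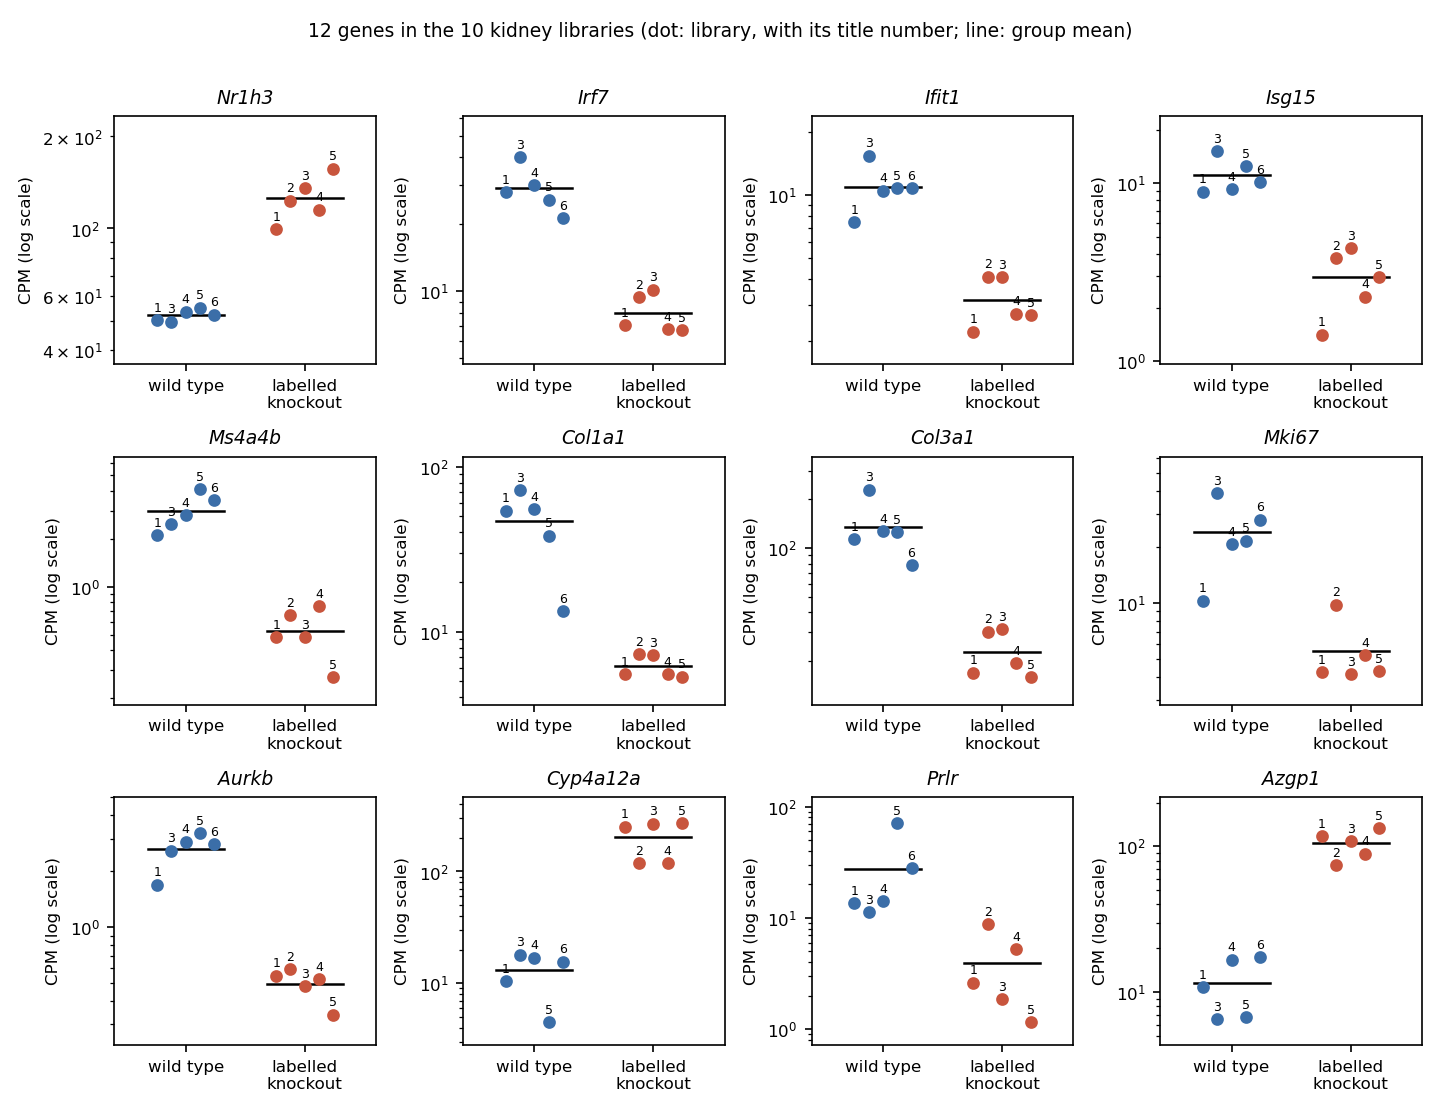
Level in CPM (log axis) of 12 genes in each wild-type and labelled knockout kidney library, 1 dot per library marked with its title number, with the group mean as a line. The genotypes do not overlap in any of the 12 panels, and the highest library of Irf7, Ifit1, Isg15, Col1a1, Col3a1 and Mki67 is WT3.

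Many T and NK cell genes were lower in labelled knockout kidney. Of 17 T and NK cell markers tested, 10 were called lower (1.87% over all genes) and all 17 had negative fold changes (median -1.43). Their summed level before TMM scaling was 22.4 to 43.9 CPM in wild type and 6.93 to 16.2 CPM in labelled knockout, ranges that do not overlap. The count was 5 without WT4, WT5, KO1 or KO3 and 4 without KO4 or KO5. The part of this difference in that of the interferon genes was not tested.

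Ms4a4b, a membrane protein of T cells, stood at 2.10, 2.47, 2.81, 4.08 and 3.48 CPM in WT1, WT3, WT4, WT5 and WT6 and at 0.480, 0.663, 0.481, 0.753 and 0.270 CPM in KO1 to KO5. The groups did not overlap, WT5 was the highest and KO5 the lowest library (-2.49, SE 0.32, adjusted p = 0.00273). Gzmb, the cytotoxic protease granzyme B, stood at 0.954, 1.24, 0.771, 2.06 and 2.08 CPM and at 0.0343, 0.105, 0.333, 0.226 and 0.135 CPM in the same order. KO1 was the lowest and WT4 the lowest wild-type library, and the log2 fold change was -3.08 (SE 0.50, adjusted p = 0.0105). Cd8b1, a chain of the CD8 co-receptor, fell from 1.52 ± 0.537 to 0.256 ± 0.115 CPM (adjusted p = 0.00674), and the chemokine Ccl5 from 4.61 ± 1.06 to 1.32 ± 0.534 CPM (adjusted p = 0.0127). Cd4 stood at 1.4 ± 0.109 and 0.517 ± 0.0887 CPM (-1.43, adjusted p = 0.0156), a call that was lost without KO4 or KO5 (adjusted p up to 0.0688).

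Other immune cells gave fewer calls. Of 19 macrophage and dendritic cell markers, 0 were called by edgeR, 8 had an unadjusted p under 0.05, and DESeq2 called 2 and limma voom 5 of them, all lower. All 19 fold changes were negative (median -0.56). The summed level before TMM scaling was 195 to 308 CPM in wild type and 149 to 247 CPM in labelled knockout. The macrophage gene Adgre1 had a log2 fold change of -0.60 (adjusted p = 0.441) and the complement gene C1qa -0.53 (adjusted p = 0.208). Of 10 B and plasma cell markers, 0 were called by edgeR (1 lower without WT6), with 5 at an unadjusted p under 0.05, all lower, and DESeq2 called 0 and limma voom 1. Their fold changes ran from -1.47 to 0.63, with 2 above 0. The median difference of the T and NK cell list was not tested against that of the macrophage list.

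Ptpn22, a phosphatase of lymphocytes that restrains antigen receptor signalling, moved the other way and was picked out after its values were seen. It stood at 1.91, 2.47, 2.74, 2.48 and 3.84 CPM in WT1, WT3, WT4, WT5 and WT6 and at 25.5, 15.1, 20.1, 26.2 and 2.33 CPM in KO1 to KO5. KO5 lay within the wild-type range, while the other 4 labelled knockout libraries lay above it (2.73, SE 0.48, adjusted p = 0.0130).

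Many genes of structural extracellular matrix were lower as well. In the kidney, interstitial fibroblasts and mural cells make fibrillar collagens, while tubule, endothelial and glomerular cells build the basement membranes on collagen IV. Of 67 genes tested from the lists of fibrillar collagens, other collagens, elastic fibre and glycoproteins, and proteoglycans, 27 were called lower (1.87% over all genes) and 1 higher (0.394%), with a median of -1.09 beside -0.07 over all genes. The count of lower calls was 12 without KO4 and 37 without WT6. Other matrix lists held fewer edgeR calls, but more genes passed looser measures. Laminins and integrins had 8 lower and 1 higher at an unadjusted edgeR p under 0.05 (4 and 1 by DESeq2, 5 and 2 by limma voom). Matrix proteases and inhibitors had 13 lower and 1 higher (5 and 0 by DESeq2, 9 and 2 by limma voom). Of 22 laminin and integrin genes 1 was called lower (median -0.33, 4 positive), a count of 0 without KO4 or KO5, 2 without KO2 and 4 without WT6. Of 19 matrix proteases and inhibitors 3 were called lower (median -0.91, 3 positive), a count of 0 without WT1, WT4, WT5, KO1, KO3, KO4 or KO5, 1 without WT3 and 5 without WT6.

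Of 8 fibrillar collagen genes 4 were called lower, and at least 4 in each of the 10 fits. The list median was -1.88, and -1.22 without WT3. Col1a1 (chromosome 11, 94936224 to 94953042), one of the genes of type I collagen, stood at 54.0, 72.1, 55.1, 38.2 and 13.2 CPM in WT1, WT3, WT4, WT5 and WT6 and at 5.52, 7.29, 7.21, 5.54 and 5.33 CPM in KO1 to KO5. The wild-type libraries were widely spread, with WT6 nearest to the labelled knockouts, which lay close together (-2.91, SE 0.36, adjusted p = 0.00209). Col3a1, which encodes type III collagen, stood at 114, 230, 128, 125 and 78.6 CPM and at 16.9, 30.3, 31.5, 19.4 and 15.9 CPM in the same order (-2.57, SE 0.30, adjusted p = 0.00208). Again WT3 was highest, WT6 was the lowest wild-type library, and no library of one genotype reached the other. Col1a2 (-2.30, adjusted p = 0.00209) and Col5a1, which sets the width of collagen fibrils (-2.03, adjusted p = 0.0105), were the others called.

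Among 20 other collagen genes 8 were called lower, a count of 3 without KO1, KO3, KO4 or KO5, 4 without WT4 or KO2 and 5 without WT1 or WT5. The beaded filament chains Col6a1 and Col6a2 had log2 fold changes of -2.34 and -2.46 (adjusted p = 0.0123 and 0.00437), and Col15a1, of vessel and tubule basement membranes, had -2.30 (adjusted p = 0.0120). Col4a1, a main chain of basement membrane, was the most abundant of the called ones at 282 ± 93.8 and 121 ± 14.0 CPM (-1.22, adjusted p = 0.0171). Its call was lost without KO1, KO3, KO4 or KO5 (adjusted p up to 0.0687). Col19a1 was the exception, at 0.24 ± 0.226 and 1.90 ± 0.797 CPM (2.98, adjusted p = 0.0155, and 0.0570 without KO4).

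Enzymes that finish collagen were lower in part. Of 21 tested, 4 were called lower, a count of 2 without KO1, KO3, KO4 or KO5 and 8 without WT6. Loxl2, which cross-links collagen and elastin, fell from 12.6 ± 1.72 to 3.95 ± 1.03 CPM (-1.67, adjusted p = 0.00273), and Adamts2, which removes the amino-terminal propeptide, from 7.4 ± 1.77 to 2.46 ± 0.847 CPM (-1.58, adjusted p = 0.0123). The metalloprotease Adam12, outside the lists and named after its values were seen, fell by 2.15 on the log2 scale (adjusted p = 0.0120).

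Of 26 elastic fibre genes and glycoproteins, 13 were called lower and all 26 had negative fold changes (median -1.27). The count was 7 without WT4, WT5, KO1 or KO3 and 5 without KO4 or KO5. Sparc, a collagen-binding glycoprotein, stood at 210, 260, 325, 335 and 228 CPM in WT1, WT3, WT4, WT5 and WT6 and at 79.6, 118, 106, 74.3 and 49.2 CPM in KO1 to KO5. It was the most abundant gene of the list that was called in all 10 fits, and here WT5 and not WT3 was highest (-1.67, SE 0.25, adjusted p = 0.00638). Fbn1, which encodes the microfibril scaffold fibrillin, had a log2 fold change of -2.02 (adjusted p = 0.0102) and Eln, which encodes elastin, of -1.71 (adjusted p = 0.0120). The microfibril-associated genes Fbln1 (-1.67) and Mfap4 (-1.81) were lower too (adjusted p = 0.0123 for both). Fstl1, a secreted relative of Sparc, fell from 44.4 ± 3.00 to 17.0 ± 5.85 CPM (-1.38, adjusted p = 0.00793).

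Few markers of stromal and vessel cells were called by edgeR, where 1.87% of all genes were called lower. At an unadjusted edgeR p under 0.05, lower values were held by 9 fibroblast, 9 smooth muscle and 13 endothelial genes, and higher values by 0. DESeq2 called 6, 2 and 6 genes of these lists lower and limma voom 6, 7 and 10, in the same order. Of 19 fibroblast and TGF-beta genes 1 was called lower, and the fibroblast receptor Pdgfra stood at 22.9 ± 8.94 and 12 ± 4.15 CPM (-0.93, adjusted p = 0.126). That list held 0 lower calls without WT1, WT4, WT5, KO1, KO3, KO4 or KO5, 2 without KO2 and 6 without WT6. Of 13 smooth muscle and pericyte genes 1 was called lower, with 2 fold changes above 0 (range -1.20 to 0.59), and that count was 0 without any one library other than WT6 and 4 without WT6. Summed levels of 16 endothelial genes before TMM scaling were 513 to 977 CPM in wild type and 247 to 543 CPM in labelled knockout. All 16 had negative fold changes (median -0.70). Of these, Cldn5, of endothelial tight junctions (-0.97, adjusted p = 0.0188), and Cdh5 were called lower, and the call of Cldn5 was lost without WT5, KO1, KO4 or KO5 (adjusted p up to 0.0724). Cdh5, the endothelial cadherin, had a log2 fold change of -1.08 (adjusted p = 0.0402), and its call was lost without WT1, WT4, WT5, KO1, KO3, KO4 or KO5 (adjusted p up to 0.124). The endothelial count was 0 without WT5, KO1, KO4 or KO5, 1 without WT1, WT4 or KO3, 4 without KO2 and 5 without WT6. Cd93, an endothelial receptor outside the lists that was named after its values were seen, fell from 22.4 ± 2.33 to 8.99 ± 3.13 CPM (-1.32, adjusted p = 0.0120).

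Podocytes, the filtering cells of the glomerulus, showed the same sign. All 14 podocyte genes had negative fold changes (median -0.80). Their sums before TMM scaling were 328 to 839 CPM in wild type, lowest in WT3, and 226 to 513 CPM in labelled knockout. With TMM scaling, the mean log2 CPM of this list lay 0.32 to 0.51 above its mean over the 10 libraries in wild type. In labelled knockout the deviations were -1.32 to 0.13, without overlap. Nphs1, which encodes nephrin of the slit diaphragm, stood at 27.3 ± 5.33 and 15.3 ± 7.09 CPM without a call (-0.83, adjusted p = 0.193). Plce1, a phospholipase needed for podocyte development, was the only member called (-1.04, adjusted p = 0.0242), and the call was lost without WT4, WT5, KO1, KO3, KO4 or KO5 (adjusted p up to 0.0835). Without WT6, 3 members were called lower. At an unadjusted edgeR p under 0.05, 9 of the 14 were lower and 0 higher. DESeq2 called 5 and limma voom 6 of them, all lower. The part of vessel, stromal or glomerular RNA in the matrix difference was not tested.

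**Figure D4:**
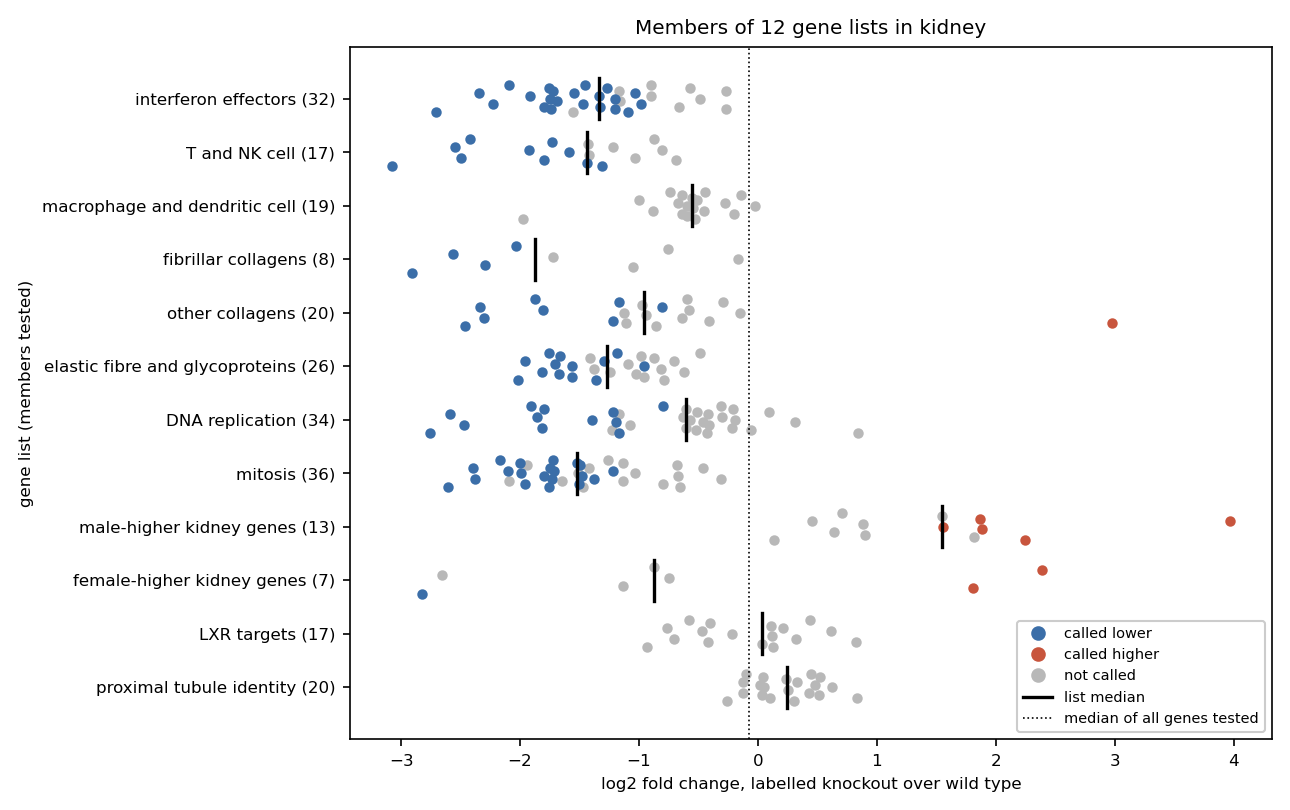
Log2 fold change (horizontal axis) of every tested member of 12 gene lists (vertical axis), 1 dot per gene, coloured where edgeR called it, with the list median as a bar and the median of all genes tested as a dotted line at -0.07. The interferon, T and NK cell, matrix and mitosis lists lie to the left of that line (medians from -1.88, or -1.22 without WT3, to -0.96), while the LXR targets (0.03) and the proximal tubule list (0.25) hold no coloured dot.

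Many genes of mitosis and DNA replication were lower in labelled knockout kidney. Dividing cells switch on replication genes through E2F factors at the start of S phase and mitotic genes through B-Myb complexes, which bind the cell cycle homology region (CHR), in G2 and M. Of 36 mitosis genes, 20 were called lower (1.87% over all genes) and all 36 had negative fold changes (median -1.52). Their summed levels before TMM scaling were 181 to 276 CPM in wild type and 69.3 to 119 CPM in labelled knockout. The count was 9 without KO1 or KO3, 8 without KO4 and 6 without KO5. Of 34 DNA replication genes, 12 were called lower (median -0.60), a count of 7 without WT5, KO1 or KO5. Their summed levels before TMM scaling overlapped, with WT3 the lowest library at 225 CPM. With TMM scaling, the mean log2 CPM of this list lay 0.24 to 0.73 above its mean over the 10 libraries in wild type. In labelled knockout the deviations were -0.52 to -0.24, without overlap. The difference between these lists was not tested. Of 16 cell cycle inhibitors and p53 targets 1 was called lower (median -0.33).

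Mki67, the proliferation antigen, stood at 10.3, 38.8, 20.6, 21.6 and 27.9 CPM in WT1, WT3, WT4, WT5 and WT6 and at 4.25, 9.77, 4.14, 5.24 and 4.29 CPM in KO1 to KO5. KO2 was well above the other labelled knockouts and just below WT1, the lowest wild-type library (-2.10, SE 0.34, adjusted p = 0.0108). Aurkb, the kinase that corrects faulty attachments of chromosomes to the spindle, stood at 1.69, 2.58, 2.89, 3.21 and 2.80 CPM and at 0.549, 0.593, 0.481, 0.527 and 0.338 CPM in the same order. Its labelled knockout libraries were closely grouped, with WT1 again lowest in wild type (-2.39, SE 0.28, adjusted p = 0.00208). The kinetochore gene Cenpf fell from 5.57 ± 2.28 to 1.38 ± 0.399 CPM, and the condensin gene Ncapg had a log2 fold change of -2.38 (adjusted p = 0.0120 for both). Bub1, of the spindle checkpoint (-2.17, adjusted p = 0.0123), and Prc1, which bundles the central spindle (-1.52, adjusted p = 0.0127), were lower too.

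Cdk1, the kinase that starts mitosis, had a log2 fold change of -1.76 (adjusted p = 0.0200) and Top2a, which untangles sister chromatids, of -1.96 (adjusted p = 0.0202). The call of Top2a was lost without KO1, KO3, KO4 or KO5 (adjusted p up to 0.0707), and that of Cdk1 without these or WT4 (adjusted p up to 0.0724). Libraries of the genotypes overlapped for Cdk1.

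Mcm5, a subunit of the replicative helicase, stood at 11.4, 9.79, 10.3, 12.7 and 15.8 CPM in WT1, WT3, WT4, WT5 and WT6 and at 4.87, 4.96, 7.03, 3.99 and 5.88 CPM in KO1 to KO5. Its groups did not overlap, with WT6 highest and KO4 lowest (-1.17, SE 0.20, adjusted p = 0.0127). Uhrf1, which carries DNA methylation through replication, had a log2 fold change of -1.91 (adjusted p = 0.00309), Dtl, which marks a licensing factor for destruction, of -2.47 (adjusted p = 0.00674), and the nuclease gene Exo1 of -2.76 (adjusted p = 0.0038). Rrm2, a subunit of ribonucleotide reductase, fell from 9.95 ± 2.97 to 3.78 ± 0.576 CPM (-1.4, adjusted p = 0.0117). The checkpoint adaptor Clspn and the chromatin assembly factor Chaf1b had log2 fold changes of -1.82 and -1.80 (adjusted p = 0.0123 and 0.0117). The repair gene Rad54l fell by 1.89 (adjusted p = 0.00793).

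The cell cycle inhibitor Cdkn1a, which encodes p21 and was also in the tubule injury list, was that gene, at 6.40 ± 0.723 and 3.16 ± 0.558 CPM (-1.02, adjusted p = 0.0233). Its call was lost without WT4, WT5, KO1, KO3, KO4 or KO5 (adjusted p up to 0.0724). No other of the 19 injury genes tested was called in the fit of all 10 libraries, where 1 had a higher and 4 (Cdkn1a included) a lower value at an unadjusted p under 0.05, DESeq2 called 0 higher and 3 lower, and limma voom 1 higher and 5 lower.

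Promoter stretches of 6 of these genes show the letters searched, from the same RefSeq windows. Capitals mark an E2F site, searched as TTTGGCGC or TTTCCCGC, in Mcm5 (chr8:75109329-75109398, plus strand) and Dtl (chr1:191575545-191575583, minus strand). In the other 4 they mark the CHR, searched as TTTGAA. These are Mki67 (chr7:135716449-135716518, minus strand), Ncapg (chr5:45669863-45669924, plus strand), Prc1 (chr7:80294414-80294451, plus strand) and Cdk1 (chr10:69352918-69352987, minus strand). All motifs were searched on both strands.
Mcm5: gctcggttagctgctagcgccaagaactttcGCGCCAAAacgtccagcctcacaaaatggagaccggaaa
Dtl: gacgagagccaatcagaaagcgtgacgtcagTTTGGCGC
Mki67: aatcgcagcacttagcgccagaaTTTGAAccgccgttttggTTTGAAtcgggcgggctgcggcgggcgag
Ncapg: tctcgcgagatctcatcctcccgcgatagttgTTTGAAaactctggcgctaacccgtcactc
Prc1: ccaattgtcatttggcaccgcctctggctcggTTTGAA
Cdk1: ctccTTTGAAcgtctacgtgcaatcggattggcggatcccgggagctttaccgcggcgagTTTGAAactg
Mki67 and Cdk1 held 2 matches each, and in Prc1 the match began 5 bases before the start site. The CHR letters were in 23 of 29 windows of the mitosis list (79.3%), against 17.9% of all windows and 12.4% of those of genes tested in kidney. They were in 5 of 33 windows of the replication list. The E2F letters were in 10 of 33 windows of the replication list (30.3%) and 2 of 29 of the mitosis list, against 1.56% of all windows and 2.59% of those of tested genes. Windows of the mitosis list often held CCAAT as well (24 of 29, against 37.4% of all windows). Matches describe the promoters and do not show binding in these kidneys.

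Some genes known to be higher in male than in female mouse kidney were called higher in labelled knockout, although all mice were male. The male proximal tubule expresses androgen-driven genes such as Kap, Odc1 and the fatty acid hydroxylase Cyp4a12a, while Prlr and Slc7a12 are higher in females. Of 13 male-higher genes, 5 were called higher in labelled knockout (0.394% over all genes) and all 13 had positive fold changes (median 1.55 beside -0.07 over all genes). The count was 3 without WT1, 2 without WT4, WT5, KO1, KO3 or KO4 and 1 without KO5.

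Cyp4a12a (chromosome 4, 115299046 to 115332815) stood at 10.5, 18.0, 17.0, 4.48 and 15.6 CPM in WT1, WT3, WT4, WT5 and WT6 and at 252, 118, 268, 118 and 269 CPM in KO1 to KO5. KO2 and KO4 were the lowest labelled knockouts and still lay far above all wild-type libraries (3.97, SE 0.40, adjusted p = 0.00100). Its near-identical neighbour Cyp4a12b, with which reads may be shared, was higher by 1.87 (adjusted p = 0.0228), a call lost without WT4, WT5 or KO5 (adjusted p up to 0.0679). Odc1, ornithine decarboxylase of polyamine synthesis, was the most abundant gene called and stood at 673, 176, 751, 467 and 949 CPM and at 2193, 1026, 2774, 2278 and 2860 CPM in the same order. KO2 lay just above WT6, and the call (1.88, SE 0.41, adjusted p = 0.0339) was lost without WT1, WT4, WT5, KO1, KO3, KO4 or KO5 (adjusted p up to 0.0977).

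Slco1a1, an organic anion transporter of the brush border, stood at 105, 49.5, 129, 18.8 and 127 CPM in wild type and at 191 to 529 CPM in labelled knockout, with KO2 the lowest of the latter (2.25, SE 0.46, adjusted p = 0.0261). Its call was lost without KO1, KO3, KO4 or KO5 (adjusted p up to 0.0784). Cyp2j13, at 148 ± 75.1 and 435 ± 67.5 CPM (1.56, adjusted p = 0.0359), lost its call without WT1, WT4, WT5, KO1, KO3, KO4 or KO5 (adjusted p up to 0.0977). Cyp2e1 stood at 499, 113, 774, 481 and 875 CPM in WT1, WT3, WT4, WT5 and WT6 and at 2283, 1098, 1871, 1811 and 2588 CPM in KO1 to KO5. These groups did not overlap either, and the adjusted p lay at 0.05, just over the threshold (1.82, SE 0.44). Kap, the kidney androgen-regulated protein, was the most abundant nuclear transcript of the list at 14171 to 31102 CPM in wild type and 30726 to 46194 CPM in labelled knockout (0.71, adjusted p = 0.290).

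Of 7 genes listed as female-higher in kidney, 5 had negative and 2 positive fold changes (median -0.87). Prlr, the prolactin receptor, stood at 13.6, 11.2, 14.2, 70.8 and 28.1 CPM in WT1, WT3, WT4, WT5 and WT6 and at 2.61, 8.73, 1.85, 5.20 and 1.15 CPM in KO1 to KO5. WT5 lay far above the other wild-type libraries, and KO2 was the highest labelled knockout. The call of Prlr (-2.82, SE 0.62, adjusted p = 0.0338) was lost without WT5, KO1, KO3, KO4 or KO5 (adjusted p up to 0.0947). Slc7a12, an amino acid transporter, had a log2 fold change of -2.65 (adjusted p = 0.0593). Cyp2a4, a testosterone hydroxylase, was put in the same list, but no female kidney was among the libraries to check its sex bias. It stood at 92.5, 82.6, 156, 36.1 and 126 CPM in wild type and 526, 538, 429, 474 and 620 CPM in labelled knockout (2.39, SE 0.32, adjusted p = 0.00337). Its near copy Cyp2a5 was higher by 1.81 (adjusted p = 0.0462), with overlapping libraries and a call that was lost in every fit without 1 library except those without WT3 or WT6 (adjusted p up to 0.122).

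Of 19 genes of steroid and retinoid metabolism 2 were called higher and 1 lower (median 0.22), and of 34 xenobiotic enzymes 4 were called higher and 0 lower (median 0.49). Over all genes the shares were 0.394% higher and 1.87% lower. The xenobiotic count was 2 without KO1, KO3, KO4 or KO5, 8 without WT6 and 9 without WT3. The steroid count of higher calls was 1 without WT5, KO3, KO4 or KO5 and 4 without WT6. Srd5a2, which turns testosterone into dihydrotestosterone, stood at 2.58, 3.01, 3.16, 2.69 and 3.48 CPM in WT1, WT3, WT4, WT5 and WT6 and at 10.7, 5.55, 8.80, 8.44 and 6.79 CPM in KO1 to KO5. The wild-type libraries lay close together and all 5 labelled knockouts above them, KO2 the nearest (1.43, SE 0.22, adjusted p = 0.00674). Hsd11b1, which regenerates active glucocorticoid, stood at 92.8 ± 17.8 and 172 ± 18.8 CPM (0.89, adjusted p = 0.0238), with the call lost without WT5, KO1, KO3, KO4 or KO5 (adjusted p up to 0.0748). Aldh1a2, which makes retinoic acid, was the member called lower (-1.32, adjusted p = 0.0451), with the call lost without WT4, WT5, KO1, KO3, KO4 or KO5 (adjusted p up to 0.132). The xenobiotic enzyme Cyp2d12 rose from 31.5 ± 4.33 to 98.6 ± 33.6 CPM (1.65, adjusted p = 0.00380).

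Igf1, the growth factor induced by growth hormone, stood at 13.7, 39.1, 21.1, 17.6 and 17.1 CPM in WT1, WT3, WT4, WT5 and WT6 and at 4.63, 11.7, 7.29, 6.48 and 5.84 CPM in KO1 to KO5. WT3 was the highest wild-type and KO2 the highest labelled knockout library, and the groups did not overlap (-1.59, SE 0.31, adjusted p = 0.0208). The call was lost without KO1, KO3, KO4 or KO5 (adjusted p up to 0.0743). Among 12 imprinted growth genes, Plagl1 (-1.22, adjusted p = 0.0272) and Zim1 (-1.64, adjusted p = 0.0370) were called lower. The call of Plagl1 was lost without WT5, KO1, KO3, KO4 or KO5 (adjusted p up to 0.0831) and that of Zim1 without WT1, WT4, WT5, KO2, KO3, KO4 or KO5 (adjusted p up to 0.112). The imprinted count was 4 without WT6, 1 without WT1, WT4, KO1 or KO2, and 0 without WT5, KO3, KO4 or KO5.

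**Figure D5:**
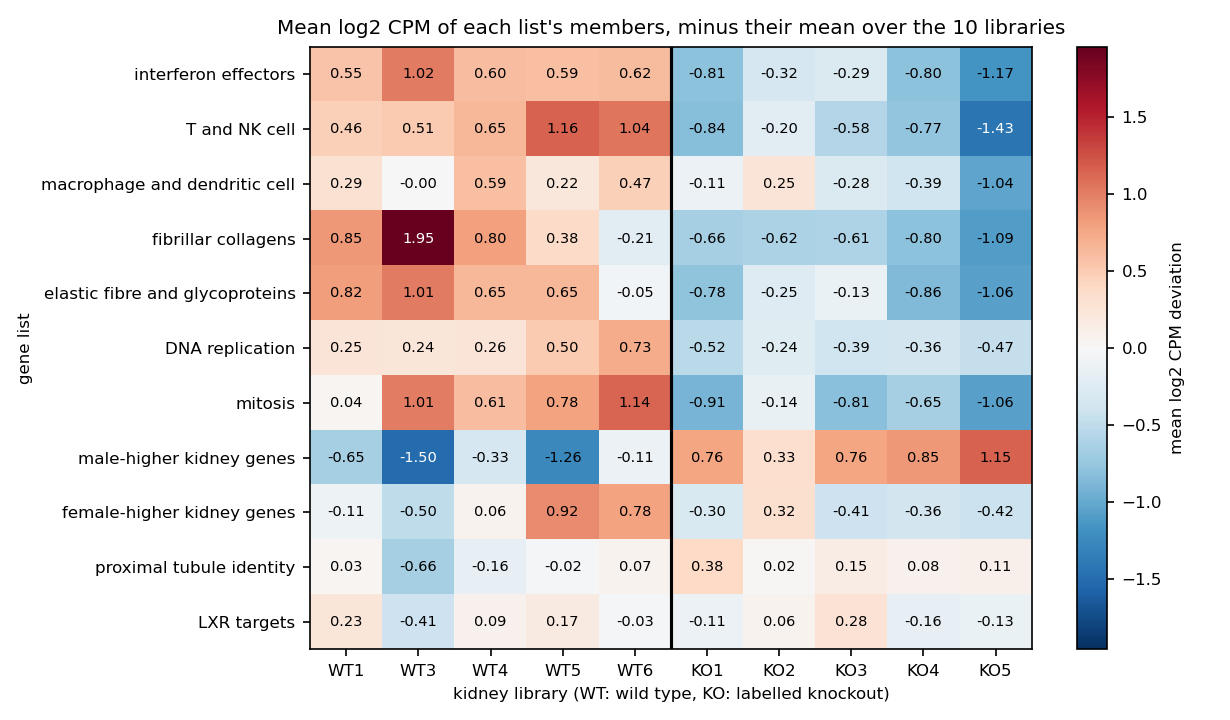
Mean log2 CPM of the tested members of 11 gene lists (rows) in each kidney library (columns), minus their mean over the 10 libraries, with the value printed in each cell. Fibrillar collagens are highest in WT3 (1.95) and the mitosis list in WT6 (1.14), KO5 is the lowest library for the interferon (-1.17) and T and NK cell lists (-1.43), and KO2 has the male-higher list at 0.33, the lowest of the labelled knockouts.

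The lists did not order the wild-type libraries alike, while KO5 was the lowest labelled knockout for most of the lists with lower calls. Among wild-type libraries the interferon and fibrillar collagen lists were highest in WT3 (1.02 and 1.95 above the mean of the 10 libraries, on the log2 scale), whereas the T and NK cell list was highest in WT5 and the mitosis list in WT6 (1.14). WT6 was the lowest wild-type library for fibrillar collagens (-0.21) and for elastic fibre genes and glycoproteins (-0.05). The male-higher list was lowest in WT3 (-1.50) and WT5 (-1.26). Among labelled knockouts KO5 was lowest for the interferon (-1.17), T and NK cell (-1.43), macrophage (-1.04) and fibrillar collagen (-1.09) lists. It was also lowest for the elastic fibre and glycoprotein (-1.06) and mitosis (-1.06) lists and highest for the male-higher list (1.15). The DNA replication list was lowest in KO1 (-0.52). KO2 stood nearest to wild type for the T and NK cell (-0.20), mitosis (-0.14) and male-higher (0.33) lists.

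Markers of the tubule segments were not called. Over 75 genes tested from the lists of proximal tubule, thick ascending limb, distal and connecting tubule, principal cell and intercalated cell, 0 were called by edgeR in either direction, a count near the share of 2.26% over all genes, with 3 higher and 9 lower at an unadjusted p under 0.05. DESeq2 called 2 higher and 2 lower, and limma voom 6 higher and 4 lower. Without WT6, edgeR called 4 of them lower. Proximal tubule genes had a median of 0.25, with 16 of 20 positive. The other segments had negative medians. These were -0.30 for the thick ascending limb (12 of 14 negative) and -0.12 for the distal and connecting tubule (10 of 14). Principal cell genes had -0.17 (10 of 12 negative) and intercalated cell genes -0.37 (13 of 15). The difference between segments was not tested. Umod, which encodes uromodulin of the thick ascending limb, stood at 2504, 336, 1616, 1140 and 1327 CPM in WT1, WT3, WT4, WT5 and WT6 and at 550, 1674, 2381, 1361 and 1510 CPM in KO1 to KO5, so that the groups overlapped throughout (0.11, adjusted p = 0.900, and -0.076 without TMM scaling). Slc12a1, the furosemide-sensitive salt transporter of the same segment, stood at 856 ± 460 and 356 ± 93.1 CPM with no overlap and no call (-1.26, adjusted p = 0.0715, called without WT6).

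Transport and enzymes of the proximal tubule gave a few higher calls. Slc22a6, the organic anion transporter 1 that takes up drugs and urate from blood, stood at 842, 450, 840, 710 and 900 CPM in WT1, WT3, WT4, WT5 and WT6 and at 1547, 1240, 1667, 1693 and 1948 CPM in KO1 to KO5. The groups did not overlap, with WT3 the lowest library and KO2 the lowest labelled knockout (1.11, SE 0.24, adjusted p = 0.0332). The call was lost without WT1, WT4, WT5, KO1, KO3, KO4 or KO5 (adjusted p up to 0.101). Among 311 genes tested whose symbols begin with Slc and a digit, 3 were called higher and 0 lower, beside shares of 0.394% and 1.87% over all genes, and nothing particular to the family is read from so few. The others of these 3 were Slc1a4, a neutral amino acid exchanger (0.92, adjusted p = 0.0171), and the orphan carrier Slc16a14 (1.57, adjusted p = 0.0179). The call of Slc1a4 was lost without WT5, KO4 or KO5 (adjusted p up to 0.0688) and that of Slc16a14 without WT4, KO1, KO4 or KO5 (adjusted p up to 0.0620).

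Ldhd, which oxidises D-lactate, was among the most abundant genes called, at 599 ± 162 and 1333 ± 312 CPM (1.15, adjusted p = 0.0373), and Prodh, which starts proline breakdown, at 231 ± 24.5 and 403 ± 71.2 CPM (0.80, adjusted p = 0.0393). The call of Ldhd was lost without WT4, WT5, KO1, KO3, KO4 or KO5 (adjusted p up to 0.117), and that of Prodh without these or WT1 (adjusted p up to 0.118). Nat8f5, of a family of N-acetyltransferases of the tubule, was higher by 1.92 (adjusted p = 0.0281), a call lost without WT1, WT4, WT5, KO1, KO3, KO4 or KO5 (adjusted p up to 0.0779). Ggt6, of the glutathione-cleaving family, rose from 7.11 ± 0.914 to 13.9 ± 1.76 CPM (0.97, adjusted p = 0.0120).

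None of the targets of the receptor named in the genotype was called by edgeR. Of 17 LXR targets tested 0 were called, where 2.26% of all genes were, so that so short a list does not stand apart by its count. There were 1 higher and 2 lower targets at an unadjusted p under 0.05, while DESeq2 called 1 higher and 1 lower and limma voom 2 higher and 1 lower. Without WT3, edgeR called 1 target lower. The list median was 0.03, and -0.07 without TMM scaling, beside medians of -0.07 and -0.16 over all genes, and 9 members had positive and 8 negative values, from -0.93 to 0.82. Abca1, the cholesterol efflux pump, stood at 15.8 ± 2.54 and 16.2 ± 3.90 CPM (0.03, SE 0.19, adjusted p = 0.927, and -0.065 without TMM scaling). Srebf1, the lipogenic factor, stood at 35.8 ± 9.25 and 39.1 ± 7.61 CPM (0.13, adjusted p = 0.722), Pltp, the phospholipid transfer protein, at 4.99 ± 2.19 and 2.62 ± 1.01 CPM (-0.93, adjusted p = 0.191), and Rnf145, a ubiquitin ligase of sterol control, at 69.7 ± 10.5 and 107 ± 21.4 CPM (0.61, adjusted p = 0.0989). Ren1, which encodes renin, stood at 110, 58.4, 101, 143 and 135 CPM in WT1, WT3, WT4, WT5 and WT6 and at 91.7, 57.8, 29.3, 24.3 and 41.5 CPM in KO1 to KO5. Of the labelled knockouts only KO1 lay above the lowest wild-type library, and the gene was not called (-1.16, SE 0.35, adjusted p = 0.0989). Without KO1 it was called.

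Of 76 genes tested of cholesterol synthesis, fatty acid and triglyceride synthesis and fatty acid oxidation, 0 were called by edgeR, with 13 higher and 1 lower at an unadjusted p under 0.05. DESeq2 called 5 higher and 1 lower, and limma voom 12 higher and 0 lower. Without WT3 or without WT6, edgeR called 1 of them higher. Of 72 genes of respiration, glucose and ammonia metabolism, and hypoxia and glycolysis, 0 were called by edgeR, with 5 higher and 3 lower at an unadjusted p under 0.05, and DESeq2 and limma voom each called 1 higher and 1 lower. Of 55 clock, immediate early and unfolded protein response genes, 0 were called, with 3 higher and 15 lower at an unadjusted p under 0.05, 2 higher and 1 lower by DESeq2, and 4 higher and 7 lower by limma voom. Without WT6, edgeR called 7 of these 55 lower and 1 higher.

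Several other genes differed by large factors. Azgp1, the zinc α2-glycoprotein linked to fat mobilisation, stood at 10.8, 6.56, 16.7, 6.72 and 17.3 CPM in WT1, WT3, WT4, WT5 and WT6 and at 117, 74.3, 109, 89.0 and 134 CPM in KO1 to KO5. All 5 labelled knockouts lay far above WT6, the highest wild-type library, and the log2 fold change was 3.17 (SE 0.31, adjusted p = 0.000856). Apoh, a plasma glycoprotein known from liver, rose from 2.32 ± 0.885 to 16.2 ± 6.25 CPM (2.80, adjusted p = 0.00208). Azgp1 and Apoh were among 15 hepatocyte genes tested, of which Apoc3 was called lower and Alb was not called (adjusted p = 0.985). The call of Apoc3 was lost without WT4, WT5, KO3, KO4 or KO5 (adjusted p up to 0.0947).

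Cpe, which trims peptide hormones, stood at 21.1, 9.95, 23.9, 17.2 and 19.5 CPM in WT1, WT3, WT4, WT5 and WT6 and at 94.8, 65.7, 72.0, 111 and 120 CPM in KO1 to KO5, with no overlap (2.34, SE 0.25, adjusted p = 0.00141). Ccl28, a mucosal chemokine, rose from 7.26 ± 3.12 to 32.6 ± 13.8 CPM (2.17, adjusted p = 0.0127), Chrdl1, an antagonist of bone morphogenetic proteins, by 2.34 (adjusted p = 0.0123), Igf2bp1, an RNA-binding protein of fetal tissues, by 1.55 (adjusted p = 0.0120) and Cadm1, a cell adhesion molecule, by 1.26 (adjusted p = 0.00674), all on the log2 scale.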

How the data were processed

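Total RNA from frozen mouse tissue was extracted with Trizol and made into NEBNext Ultra libraries, per the labels' protocols. The submitters' processing notes name HISAT2 2.0.5, StringTie, DESeq2 1.16.1 and mm10 without giving their roles, and how reads were counted or whether strand was used is not given in the sources used here. The authors deposited counts per gene, which were the values tested, and a table of log2 FPKM, used for an alternative only.

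Genes passed edgeR's filterByExpr (minimum count 10), counts were scaled by TMM, and genotypes (5 libraries each) were compared with edgeR 4.0.16 quasi-likelihood F tests, adjusted by Benjamini and Hochberg with a threshold of 0.05 (R 4.3.3). The script was tested on simulated data. Alternatives were DESeq2 1.42.0, limma 3.58.1 (voom and trend), other scaling and filters, a block by title number and left-out libraries. Depth of 23421561 to 32221055 counts per library limits the precision for genes near 1 CPM. No 2 libraries were identical. Promoters came from RefSeq (GRCm38.p6).

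Members and gene lists were chosen with earlier results of these data known. Named genes were Nr1h3, list members (called ones by p, up to 8, and those a list's account is about), the 25 genes with the smallest p in each direction among non-overlapping genes averaging 1 CPM or more, and the 10 most abundant called genes. Ptpn22, Stat2, Slfn1, Slfn8, Ifi213, Ifi206, Ifi209, C1qa, Adam12, Cd93, Cdk1, Srebf1, Pltp, Rnf145 and Fos fall outside this rule and were named after their values were seen. Liver libraries were not used here, and results for a few genes are not reported here.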

Additional observations from a re-analysis of the deposited data

Results flagged for a closer look

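In 4 cases a single library of a group lay far from the others, measured as its gap to the nearest library over the whole range of the group, with 0.71 as the limit for 5 samples. At that limit chance alone flags about 1 in 20 groups, and the number of groups looked at is not given here. Whether the 4 cases are more than chance would give was not tested. WT3, flagged for 2 of the genes, is also the library with 50.8% of its counts on mitochondrially encoded genes. Mki67 in labelled knockout kidney had a gap ratio of 0.806, with KO2 at 9.77 CPM and the others at 4.14 to 5.24 CPM. Prlr in wild-type kidney had 0.718, with WT5 at 70.8 CPM and the others at 11.2 to 28.1 CPM. Igf1 in wild-type kidney had 0.712, with WT3 at 39.1 CPM and the others at 13.7 to 21.1 CPM. Fos in wild-type kidney had 0.981, with WT3 at 46.3 CPM and the others at 0.363 to 1.23 CPM.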

How the results depend on the processing

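Against 65 higher and 308 lower calls, DESeq2 gave 306 and 837, limma voom 801 and 1350, and limma-trend on log2 FPKM 41 and 196. Higher calls were 38 without TMM scaling (358 lower, 90.4% of calls against 82.6%), 98 with no filter and 177 without WT1 and WT3, where 70% of calls were lower. Whether title numbers pair the samples is not given in the sources used here. Deviations of same-numbered libraries correlated at 0.035, 0.094, 0.130 and 0.210, and those of other pairs at -0.291 to 0.345. These values do not settle the pairing. The replicate block gave 185 higher and 717 lower calls, 319 of them shared, and 6 in place of 10 T and NK cell markers. WT6 and KO2 have no same-numbered partner, so they add nothing to the genotype difference in that block. Leaving out 1 library gave 24 to 169 higher and 75 to 752 lower calls. Such fits gave 8 to 24 interferon effectors, 6 to 24 mitosis, 7 to 14 DNA replication, 5 to 17 elastic fibre and glycoprotein, 3 to 10 other collagen, 4 to 6 fibrillar collagen, 4 to 10 T and NK cell and 1 to 7 male-higher genes called. With limma voom 19 DNA replication and 21 elastic fibre genes were called, with log2 FPKM 4 other collagens, and with a mean of 1 CPM 5 T and NK cell markers. Male-higher calls were 3 without TMM scaling and 10 by DESeq2 or voom. Signs near 0 turned without TMM scaling for Umod (-0.076) and Abca1 (-0.065). Leaving out 1 library gave log2 fold changes from -0.12 to 0.45 for Umod (below 0 without WT3 or KO3) and from -0.12 to 0.15 for Abca1 (below 0 without WT5 or KO1). The difference in mitochondrial share ran from -11.2 without WT1 (exact permutation p = 0.0476) to -0.28 points without WT3. The cause of these shifts was not tested.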
